A study of Rattus norvegicus with 40 samples.

Results

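The genes described here are the core genes of DNA replication licensing: Mcm2, Mcm3, Mcm4, Mcm5, Mcm6 and Mcm7, which encode the subunits of the replicative helicase; Orc1, Cdc6 and Cdt1, which load it; and Gmnn, which encodes geminin, the inhibitor of Cdt1. They were taken as a fixed list of 10 gene symbols, and all 10 were found among the 17337 genes counted in every library. Of these, 8 (Mcm2 to Mcm7, Cdt1 and Gmnn) were detected well enough in every untreated rat to be tested on that ground alone. In non-tumoral liver of DEN-treated rats, 8 of these 8 were higher than in untreated liver of the same week at 8 and at 14 weeks (w), beside 14% and 18.5% of all genes detected likewise, and 4 of 8 were at 20 w, 6 weeks after the last injection, beside 11.9%. Among the helicase subunits in non-tumoral liver at 8 and 14 w, the mean levels of Mcm3, Mcm5 and Mcm6 were 3.04-fold to 4.90-fold higher than without DEN and those of Mcm2, Mcm4 and Mcm7 1.51-fold to 2.07-fold.

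Messenger RNA was sequenced in 40 liver libraries of 24 male Fischer 344 rats. Diethylnitrosamine (DEN), a liver carcinogen that hepatocytes turn into a DNA-alkylating agent, was injected intraperitoneally once a week at 50 mg/kg from the age of 7 weeks. Rats were sampled after 8 weeks of injections (8 w), after 14 weeks (14 w), or after 14 weeks followed by 6 weeks without DEN (20 w), and rats of the same age that received no DEN were the controls at each time (no DEN). Non-tumoral liver (NT) was taken at all 3 times, and from each DEN-treated rat also a pair of tumor nodules at 14 and 20 w, with 4 rats in each of the 8 groups. The NT and nodule samples of a time point came from the same rats, and both nodules of a rat were merged into 1 value by summing their counts, which leaves n = 4 rats throughout. The 20 w groups differ from the 14 w groups in age and in the weeks without DEN, which cannot be told apart in the treated rats. Among the DEN-treated rats, 4 have identifiers that begin with F (F09 and F10 at 8 w, F06 at 14 w, F03 at 20 w) and 8 have ones that begin with H, while every no DEN rat is an H rat, and the labels do not say what the letters stand for. With the H rats alone, 8, 8 and 4 of the 8 members detected without DEN were called higher in NT liver at 8, 14 and 20 w, beside 12%, 18.4% and 10% of genes detected likewise, and 8 and 7 in nodules at 14 and 20 w, beside 20.6% and 18.4%, as many members as with all rats.

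Between 20528515 and 160622633 read pairs were counted per library (median 30477421), and the largest library, NT liver of rat H26 at 20 w, held 4.08-fold more than the next. Levels are given as CPM, that is counts relative to the size of the library, after scaling by trimmed means (TMM). Since exon lengths were not used, levels are compared between samples and not between genes. The 5 hepatocyte markers (Alb, Apoa1, Ttr, Serpina1 and Tf) summed to between 152300 and 313400 CPM in every rat, as liver tissue should. The samples are pieces of tissue, so more cells that express a gene and more RNA per cell cannot be told apart.

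Licensing prepares an origin of replication for firing. In late mitosis and G1 the origin recognition complex, of which Orc1 is the largest subunit, recruits Cdc6. Together they load MCM2-7 hexamers that arrive bound to Cdt1. Once S phase starts, Cdt1 is degraded and geminin binds what remains of it, so that no origin is licensed again in the same cycle. Cells that have left the cycle, as most hepatocytes of adult liver have, lose MCM proteins and Cdc6, and liver regrowth brings them back. Many of these genes are known targets of E2F transcription factors.

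The RefSeq promoter sequences (rat assembly GRCr8, 250 bases before to 50 after a transcript start) are shown for 7 of the 10 genes. These lie on 6 chromosomes, and each holds at least 1 of 4 forms of a sequence word there. No single form was found in all 7, and a link to the changes with DEN was not tested. Entries were found for Mcm2, Mcm3, Mcm5, Mcm6, Mcm7, Cdt1 and Gmnn, and none were found for Mcm4, Cdc6 and Orc1. Each promoter was searched on both strands for 4 forms of the E2F recognition word (TTTCCCGC, TTTCGCGC, TTTGCCGC and TTTGGCGC). All 7 promoters held at least 1 such word, against 716 of all 33469 promoters of the same length (2.14%). Other genes described further on held one too, so the word was not particular to the members. With a promoter entry, these were 3 of 6 other licensing genes (50%), 2 of 9 firing genes (22.2%) and 10 of 22 fork genes (45.5%). Of the 4 proliferation genes, 1 held one (25%). The words are in capitals below. Where every word of a gene lay before the start, the 250 bases before the start are printed, and otherwise 30 bases around each word. All are written 5′ to 3′ on the strand of the gene.
Mcm2, chr4:122918095-122918344, minus strand: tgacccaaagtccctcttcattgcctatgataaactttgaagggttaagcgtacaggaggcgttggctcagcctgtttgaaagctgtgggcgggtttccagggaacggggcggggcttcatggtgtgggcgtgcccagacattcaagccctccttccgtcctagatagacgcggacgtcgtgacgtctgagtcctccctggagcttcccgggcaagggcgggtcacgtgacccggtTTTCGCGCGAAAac
Mcm5, chr19:13488563-13488812, plus strand: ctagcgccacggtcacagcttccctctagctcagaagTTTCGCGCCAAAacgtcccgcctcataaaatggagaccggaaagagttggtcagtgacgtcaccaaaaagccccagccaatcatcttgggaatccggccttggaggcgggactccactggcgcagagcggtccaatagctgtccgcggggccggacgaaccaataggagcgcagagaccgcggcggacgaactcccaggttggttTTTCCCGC
Mcm6, chr13:42404353-42404602, minus strand: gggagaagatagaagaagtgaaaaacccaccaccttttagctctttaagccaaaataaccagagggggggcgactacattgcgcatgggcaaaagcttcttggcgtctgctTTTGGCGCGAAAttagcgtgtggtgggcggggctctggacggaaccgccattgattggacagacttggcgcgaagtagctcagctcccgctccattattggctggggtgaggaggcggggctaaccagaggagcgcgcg
Mcm7, chr12:22163179-22163428, minus strand: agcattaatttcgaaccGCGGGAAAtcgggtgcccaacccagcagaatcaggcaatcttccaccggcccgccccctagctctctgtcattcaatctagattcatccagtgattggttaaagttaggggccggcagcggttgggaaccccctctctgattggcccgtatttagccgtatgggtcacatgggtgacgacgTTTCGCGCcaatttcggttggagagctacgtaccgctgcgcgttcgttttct
Mcm3, chr9:30733734-30733763, minus strand: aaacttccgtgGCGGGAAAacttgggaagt
Mcm3, chr9:30733715-30733744, minus strand: acttgggaagtTTTCGCGCcagggaggagt
Cdt1, chr19:67529245-67529274, plus strand: ccgcgaaaattGCGCGAAAtccgcgggaag
Cdt1, chr19:67529269-67529298, plus strand: gggaagtagcttTTTGGCGCcatggcgcag
Gmnn, chr17:40729854-40729883, plus strand: tctgcaggttcgggtcgtTTTGGCGCggtt
In Mcm2, Mcm5 and Mcm6, 2 words on opposite strands overlap and make up 1 run of 12 capitals. The words lay within 14 bases before the start in Mcm2 and up to 213 and 233 bases before it in Mcm5 and Mcm7. In Mcm3, 1 word spanned the start and 1 lay after it, and those of Cdt1 and Gmnn lay after the start. The cell cycle homology region words TTTGAA and TTCGAA were found in the promoters of Mcm2 and Mcm7, or 2 of 7, against 19.7% of all promoters. A match of letters is a description of the sequence and no measurement of binding. Promoters and counts stand on different assemblies (GRCr8 and rn6), and the start that each tissue sample used was not measured.

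The first question was whether DEN raised licensing genes in NT liver during the injections. At 8 w, 8 of 8 members were called higher than in no DEN liver, where called means a log2 fold change of at least 0.5 and a Benjamini-Hochberg adjusted p of at most 0.05 in edgeR's quasi-likelihood test over all genes tested. Of all genes tested, 16.5% were called higher in that comparison, and of the genes over the filter on low counts in all 4 no DEN rats 14% were. The log2 fold changes of the 8 members had a median of 1.401 and ran from 0.60 to 2.28, against a median of -0.01 over all genes. At 14 w again 8 of 8 were called higher, beside 22.8% of all genes and 18.5% of those over the filter without DEN, with a median of 1.36 and a range from 0.63 to 2.32. Cdc6 was over the filter in 0 of 4 no DEN rats at both times and was tested through its level in the DEN-treated rats, so it had to differ and is not counted here, although it was called too. Orc1 was too low to enter either test. At 14 w it was called with DESeq2, with no filter and with all 8 groups in the fit. The log2 fold changes were 2.28, 2.25 and 2.24, against a level of 1 to 5 counts per rat without DEN. The levels of the 4 DEN-treated rats lay above those of all 4 no DEN rats for 8 of the 8 members at 8 w, beside 16.5% of genes over the filter without DEN, and for 8 of 8 at 14 w, beside 21.6%.

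**Figure D1:**
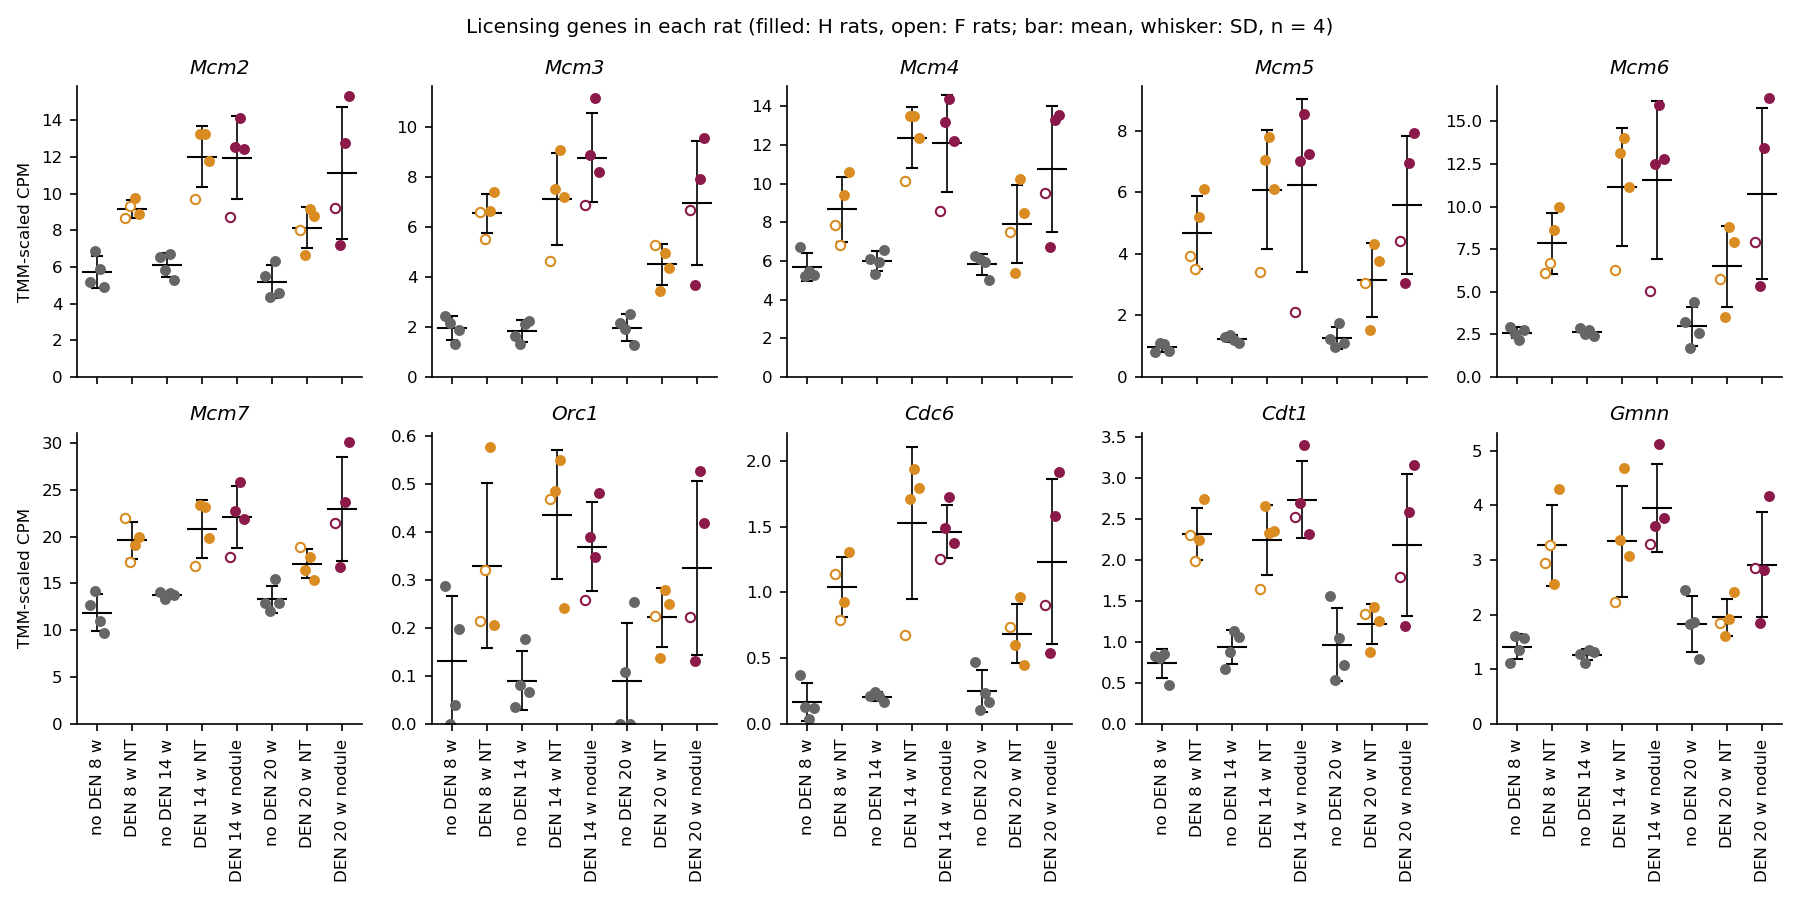
TMM-scaled CPM of each of the 10 licensing genes (vertical axes, linear, each gene on its own scale) in every rat of the 8 groups (horizontal axis), with points for rats, open for F rats and filled for H rats, a bar for the mean and a whisker for the SD of 4 rats. For Mcm5 the no DEN rats sit between 0.823 and 1.76 CPM, and the NT livers at 14 w between 3.40 and 7.80 CPM.

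Mcm5, the subunit that closes the gate of the ring with Mcm2, changed most among the helicase subunits. At 8 w the 4 no DEN rats had 0.823, 0.830, 1.08 and 1.09 CPM and the 4 DEN-treated rats 3.50, 3.94, 5.19 and 6.12 CPM. At 14 w the no DEN rats had 1.09, 1.21, 1.31 and 1.36 CPM and NT liver 3.40, 6.10, 7.05 and 7.80 CPM, with rat F06 the lowest. The groups did not overlap at either time, and the mean was 4.90-fold higher at both. The log2 fold change was 2.28 (SE 0.23, edgeR adjusted p = 6.3e-05) at 8 w and 2.32 (SE 0.25, edgeR adjusted p = 4.1e-05) at 14 w.

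Mcm6 and Mcm3 followed. Mcm6 had 2.16, 2.53, 2.73 and 2.92 CPM in no DEN rats at 8 w and 6.09, 6.71, 8.61 and 9.999 CPM in DEN-treated rats. At 14 w it had 2.38, 2.52, 2.77 and 2.86 CPM without DEN and 6.27, 11.1, 13.2 and 14.0 CPM in NT liver, again with F06 lowest and well below the other three. Its log2 fold change was 1.60 (SE 0.18) at 8 w and 2.11 (SE 0.23) at 14 w. Mcm3 stood at 1.31 to 2.43 CPM without DEN at 8 w and at 5.52 to 7.42 CPM with it, and at 14 w at 1.32 to 2.25 CPM and 4.63 to 9.09 CPM. Its log2 fold change was 1.75 (SE 0.19) at 8 w and 1.98 (SE 0.23) at 14 w.

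Mcm4, Mcm6 and Mcm7 form the core with the helicase activity, and Mcm4 and Mcm7 had smaller log2 fold changes than Mcm6 at both times. Mcm7 had 9.68, 10.97, 12.7 and 14.2 CPM without DEN at 8 w and 17.3, 19.2, 20 and 22 CPM with it. At 14 w it had 13.4, 13.8, 14.0 and 14.1 CPM without DEN and 16.9, 19.9, 23.2 and 23.3 CPM in NT liver. The groups did not overlap, but the means differed only 1.65-fold and 1.51-fold, with log2 fold changes of 0.72 (SE 0.13) and 0.63 (SE 0.10). Mcm2 changed by 0.68 (SE 0.12) and 1.01 (SE 0.12) and Mcm4 by 0.60 (SE 0.16) and 1.08 (SE 0.11) on the log2 scale at 8 and 14 w. The edgeR adjusted p of Mcm4 at 8 w was 0.0134, and without rat H18 its log2 fold change was 0.49, under the threshold.

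The fold changes were also set out as shares of the MCM2-7 counts, which restate them on the same counts and are no independent measure. As a share of the counts of the 6 subunits in a rat, Mcm5 took 3.34% ± 0.55 (SD, n = 4) without DEN and 8.20% ± 1.28 with DEN at 8 w, and 3.94% ± 0.48 and 8.57% ± 1.32 in NT liver at 14 w. At 14 w Mcm7 took 43.7% ± 0.96 without DEN and 30.2% ± 2.01 in NT liver, a difference of -13.53 percentage points, and Mcm6 8.34% ± 0.52 and 15.7% ± 2.32. Shares of Mcm3, Mcm5 and Mcm6 in the 4 DEN-treated rats lay above those of all no DEN rats at 8 w and in NT liver at 14 w, and those of Mcm2 and Mcm4 overlapped at both times. The exact 2-sided permutation test gives p = 0.0286 for each of these shares without overlap, the smallest that 4 rats against 4 allow, and 0.0536 after Benjamini-Hochberg adjustment over the 30 shares compared, so none passes 0.05 after adjustment. These tests were added after the data were seen. Longer transcripts give more counts, so a share of counts is no share of molecules, and only its difference between groups is described here.

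**Figure D2:**
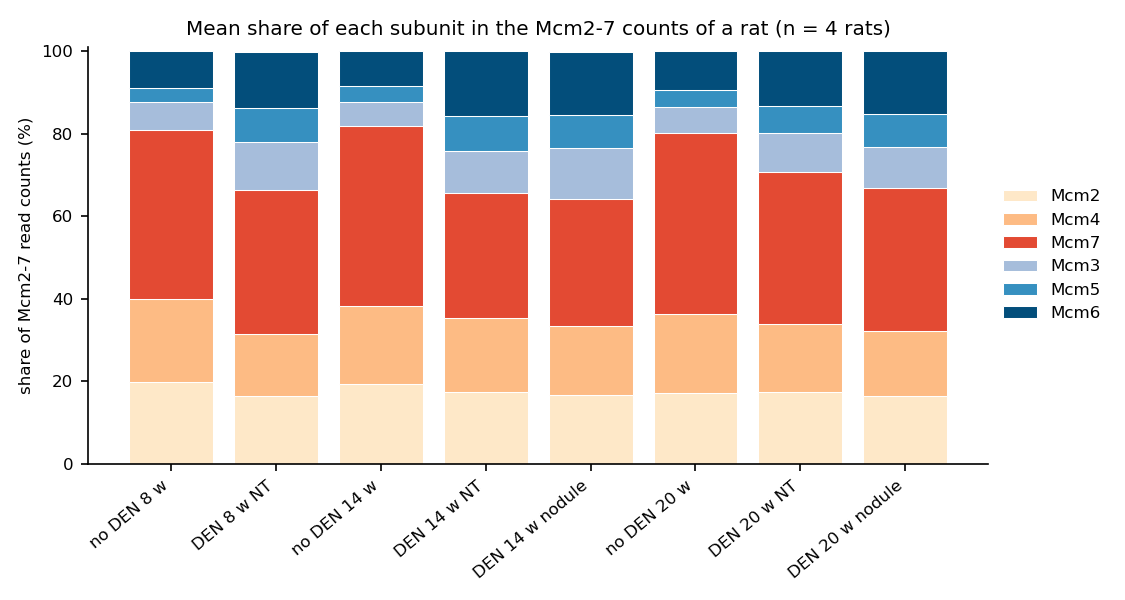
Share of each subunit in the Mcm2-7 read counts of a rat (vertical axis, percent, mean of 4 rats) in the 8 groups (horizontal axis), with Mcm2, Mcm4 and Mcm7 stacked below and Mcm3, Mcm5 and Mcm6 above. The blue part (Mcm3, Mcm5, Mcm6) is larger in every DEN-treated group than in the no DEN group of its week, as Mcm6 goes from 8.34% to 15.7% at 14 w in NT liver.

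Among the loaders, Cdc6, the ATPase that bridges the origin complex and the helicase, was barely detected without DEN, so that its fold changes rest on a level near the floor and are not ranked against those of other members. It had 1, 3, 3 and 9 counts in the no DEN rats at 8 w and 5, 6, 6 and 6 at 14 w. In DEN-treated NT liver it had 27, 29, 37 and 38 counts at 8 w, or 0.788, 0.929, 1.14 and 1.31 CPM, against 0.0386, 0.119, 0.126 and 0.370 CPM without DEN. At 14 w NT liver had 0.674, 1.71, 1.79 and 1.94 CPM against 0.166, 0.212, 0.213 and 0.240 CPM. That all DEN-treated rats stood above the filter and no untreated rat did is what brought Cdc6 into the test. The log2 fold change was 2.65 (SE 0.44, edgeR adjusted p = 0.0012) at 8 w and 2.90 (SE 0.38, edgeR adjusted p = 0.000124) at 14 w. With a rat left out, the value at 8 w ran from 2.31 to 3.40, the highest without no DEN rat H05, which held 9 counts against 1 to 3 in the other 3.

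Cdt1, which brings the helicase to the origin, had 0.474, 0.800, 0.823 and 0.850 CPM without DEN at 8 w and 1.99, 2.24, 2.31 and 2.75 CPM with it. At 14 w it had 0.672, 0.880, 1.06 and 1.14 CPM without DEN and 1.64, 2.33, 2.36 and 2.66 CPM in NT liver. All treated rats were higher than all untreated ones, with log2 fold changes of 1.65 (SE 0.22) and 1.29 (SE 0.22). Orc1, whose level cycles more than that of the other origin complex subunits, had 0 to 7 counts per rat without DEN at 8 w and 6 to 18 with it, and the groups overlapped. At 14 w it had 1, 2, 2 and 5 counts without DEN and 9, 16, 17 and 19 in NT liver, with no overlap.

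Gmnn, the inhibitor, rose along with the gene of its target. At 8 w it had 1.11, 1.35, 1.58 and 1.60 CPM without DEN and 2.56, 2.95, 3.27 and 4.30 CPM with it, and at 14 w 1.12, 1.27, 1.32 and 1.35 CPM without DEN and 2.23, 3.08, 3.37 and 4.69 CPM in NT liver. Every treated rat was above every untreated one. The log2 fold change was 1.20 (SE 0.21, edgeR adjusted p = 0.00145) at 8 w and 1.42 (SE 0.22, edgeR adjusted p = 0.000372) at 14 w. The ratio of Gmnn to Cdt1 CPM in a rat ranged from 1.19 to 3.40 over the 3 no DEN groups and from 1.09 to 2.01 over the 5 DEN-treated groups, so the ranges overlapped.

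The next question was what remained 6 weeks after the last injection. In NT liver at 20 w, 4 of 8 members were called higher than in no DEN liver (Mcm2, Mcm3, Mcm5 and Mcm6), beside 14.3% of all genes and 11.9% of those over the filter without DEN. The median log2 fold change of the 8 was 0.57, against 0.02 over all genes. Cdc6, over the filter in 1 of 4 no DEN rats, was called as well. The groups were apart without overlap for Mcm2 and Mcm3 alone, 2 of the 8 members, beside 13.4% of genes over the filter without DEN.

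**Figure D3:**
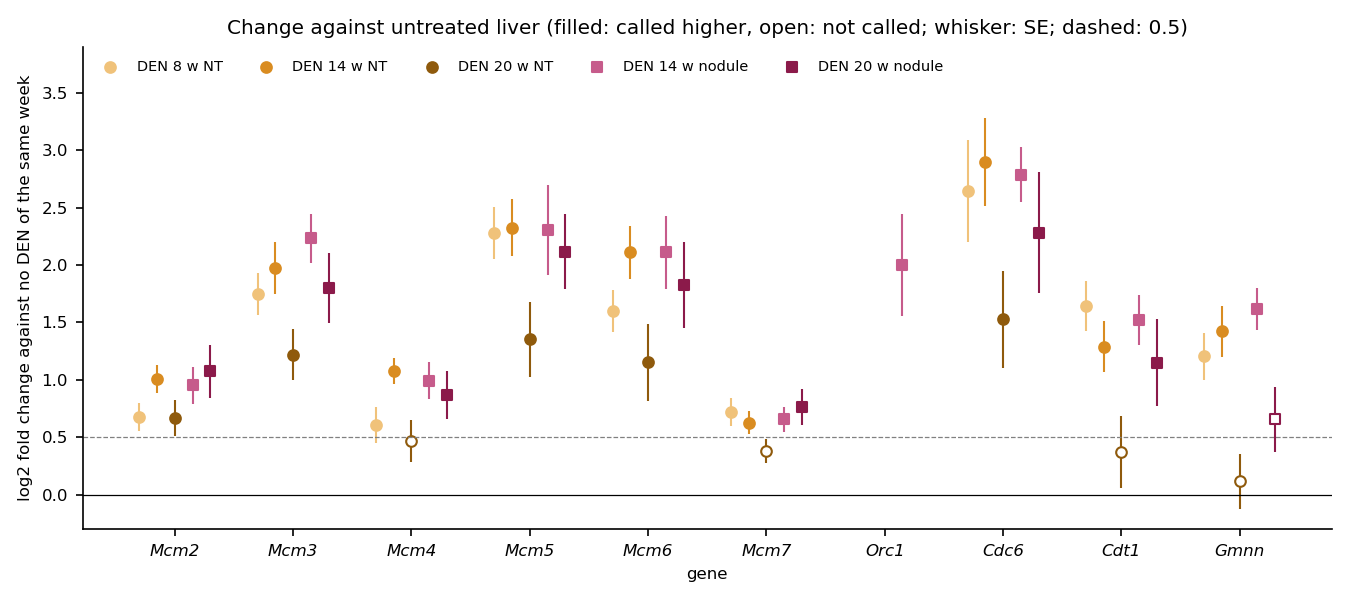
Log2 fold change of each licensing gene against no DEN liver of the same week (vertical axis) with its SE, by gene (horizontal axis), for NT liver (circles) and nodules (squares), where filled symbols were called higher and open ones were not. In NT liver at 20 w Gmnn stands at 0.12 and Mcm5 at 1.35, both below their values of 1.42 and 2.32 at 14 w.

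Mcm3 kept the clearest difference. It had 1.27, 1.94, 2.17 and 2.52 CPM in no DEN rats and 3.43, 4.37, 4.97 and 5.28 CPM in NT liver, a log2 fold change of 1.22 (SE 0.22, edgeR adjusted p = 0.00335). Mcm5 had 0.968, 1.10, 1.23 and 1.76 CPM without DEN and 1.53, 3.04, 3.75 and 4.30 CPM in NT liver, where rat H25 alone fell inside the untreated range. Its log2 fold change was 1.35 (SE 0.32, edgeR adjusted p = 0.0117), that of Mcm6 1.15 (SE 0.34, edgeR adjusted p = 0.0298), that of Cdc6 1.53 (SE 0.42, edgeR adjusted p = 0.0213) and that of Mcm2 0.67 (SE 0.16, edgeR adjusted p = 0.00998). The calls of Mcm6 and Cdc6 were lost when some single rats were left out: without H26, whose library is the largest, both were lost (edgeR adjusted p = 0.0711 and 0.0631), as they were without no DEN rat H14 (0.0672 and 0.0612) or H16 (0.0864 and 0.0754).

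Gmnn and Cdt1 stood near the untreated level. Gmnn had 1.18, 1.83, 1.86 and 2.45 CPM without DEN and 1.61, 1.86, 1.92 and 2.42 CPM in NT liver, and the treated rats lay wholly inside the untreated range. Its log2 fold change was 0.12 (SE 0.24, edgeR adjusted p = 0.746). Cdt1 had 0.538, 0.717, 1.05 and 1.56 CPM without DEN and 0.872, 1.25, 1.34 and 1.43 CPM in NT liver, also within the untreated range, with a log2 fold change of 0.37 (SE 0.31, edgeR adjusted p = 0.407). Mcm4 changed by 0.47 (SE 0.18, edgeR adjusted p = 0.0765), while Mcm7 passed the adjusted p (0.0212, edgeR) but not the size, with 0.38 (SE 0.10). Orc1 had 0, 0, 2 and 6 counts without DEN and 5, 7, 9 and 47 in NT liver, the last in the largest library, which made 0.136 to 0.279 CPM.

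Whether the effect of DEN differed between 14 and 20 w was tested as an interaction. All 9 members tested had a smaller log2 fold change at 20 w, with a median difference of -0.91. The differences ran from -1.37 (Cdc6, near the floor without DEN) to -0.24 (Mcm7). But none passed an adjusted p of 0.05, beside 0.738% of all genes that did. Before adjustment 1912 of 11245 genes had p under 0.05. Gmnn came closest, with a difference of -1.30 (SE 0.33, edgeR adjusted p = 0.0735), and it passed with DESeq2 (adjusted p = 0.0126) and among H rats alone (edgeR adjusted p = 0.0388). Between 8 and 14 w no member passed the test of a different response to DEN either, beside 8.96% of all genes, and the differences ran from -0.36 to 0.95. Without rat F06, Mcm6 passed that test with a difference of 0.71 (edgeR adjusted p = 0.0466). Of the untreated groups alone, no member of 8 tested was called between 14 and 8 w, beside 0% of all genes, nor between 20 and 8 w, beside 0.374%. In the former comparison 1038 of 10486 genes had an unadjusted p under 0.05 by edgeR, and DESeq2 called 20 genes but no member.

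In the nodules, licensing genes were compared with no DEN liver and with NT liver of the same rats. At 14 w, 8 of 8 members were called higher than in no DEN liver, beside 23.9% of all genes and 19.2% of those over the filter without DEN, and 8 of 8 were without overlap, beside 23.5% of the latter. At 20 w, 7 of 8 were called, beside 23.6% and 19.1%, and 6 of 8 were without overlap, beside 22.9%. The median log2 fold change of the 8 was 1.57 at 14 w and 1.11 at 20 w, against 0.00 and 0.01 over all genes. Cdc6 at both times and Orc1 at 14 w were called too, but they entered the test through the nodules alone or nearly so, with 0 to 1 of 4 no DEN rats over the filter.

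Orc1 at 14 w had 15, 26, 30 and 37 counts in nodules, or 0.258 to 0.481 CPM, against 0.0353 to 0.178 CPM without DEN. Its log2 fold change was 2.0 (SE 0.45, edgeR adjusted p = 0.00464), and with nodule 2 alone it was too low to be tested. Mcm5 changed by 2.30 (SE 0.39) at 14 w and 2.12 (SE 0.33) at 20 w, and Cdc6 by 2.79 (SE 0.24) and 2.28 (SE 0.53). Gmnn had 3.30, 3.62, 3.77 and 5.13 CPM in nodules at 14 w, far above its untreated level, and 1.84, 2.81, 2.85 and 4.17 CPM at 20 w, where it overlapped the untreated rats. Its log2 fold change was 1.62 (SE 0.18, edgeR adjusted p = 0.00013) at 14 w and 0.66 (SE 0.28, edgeR adjusted p = 0.0742) at 20 w. At 20 w Gmnn was called with nodule 1 alone (0.74, edgeR adjusted p = 0.0367), with all 8 groups in the fit (0.68, edgeR adjusted p = 0.0188) and with library size scaling (1.18, edgeR adjusted p = 0.00823). Cdt1 at 20 w changed by 1.15 (SE 0.38, edgeR adjusted p = 0.0262), a call that was lost without nodules of H26 or H28 or without no DEN rat H14, H15 or H16 (edgeR adjusted p from 0.0527 to 0.0786), and with nodule 2 alone (0.97, edgeR adjusted p = 0.058). No member passed the test of a difference between the nodule effects at 14 and 20 w, beside 0.0862% of all genes.

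Against NT liver of the same week, no member was called in nodules at 14 w. The log2 differences ran from -0.25 (Orc1) to 0.28 (Mcm3), and no gene at all was called (0%), while 1348 of 11466 had an unadjusted p under 0.05 by edgeR and DESeq2 called 35 genes but no member. With the rat as a replicate block, which uses the pairing of the 2 tissues in a rat, still 0 members and 0 genes were called. Within rats, Mcm3 and Gmnn were higher in the nodules of 4 of 4 rats, by ratios of 1.14 to 1.49 and 1.07 to 1.48, and Mcm4, Cdc6 and Orc1 in those of 1 of 4, where 21.3% of all genes were higher in every rat.

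At 20 w the call depended on the pairing. Without the block no member was called and no gene either (0%), but 2767 of 11546 genes had an unadjusted p under 0.05 and DESeq2 called 902 genes, none of them a member. With the replicate block, 5 of 10 members were called higher, beside 9.21% of all genes (1693 genes in either direction). These were Mcm5 with a log2 difference of 0.79 (SE 0.13, edgeR adjusted p = 0.000713), Mcm6 with 0.66 (SE 0.11, edgeR adjusted p = 0.000889), Cdt1 with 0.77 (SE 0.19, edgeR adjusted p = 0.00815), Gmnn with 0.52 (SE 0.15, edgeR adjusted p = 0.0184) and Mcm3 with 0.55 (SE 0.15, edgeR adjusted p = 0.019). Mcm2 with 0.38 and Mcm4 with 0.40 passed the adjusted p but not the size. Mcm2 to Mcm7, Cdt1 and Gmnn were higher in nodules of 4 of 4 rats, as were 23.3% of all genes, Cdc6 in those of 3 of 4 and Orc1 in those of 2 of 4. Apart from Cdc6 and Orc1, the highest ratio of nodules to NT liver in a rat was that of Cdt1 in H28, 2.52. Mcm3 followed with 2.19 in the same rat. The lowest were those of Mcm7 and Mcm3 in H25, 1.02 and 1.07. Cdc6 had ratios of 4.3 in H28 and 0.894 in H25, on 16 and 22 counts in NT liver, and Orc1 0.957 in H25 on 5 counts.

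**Figure D4:**
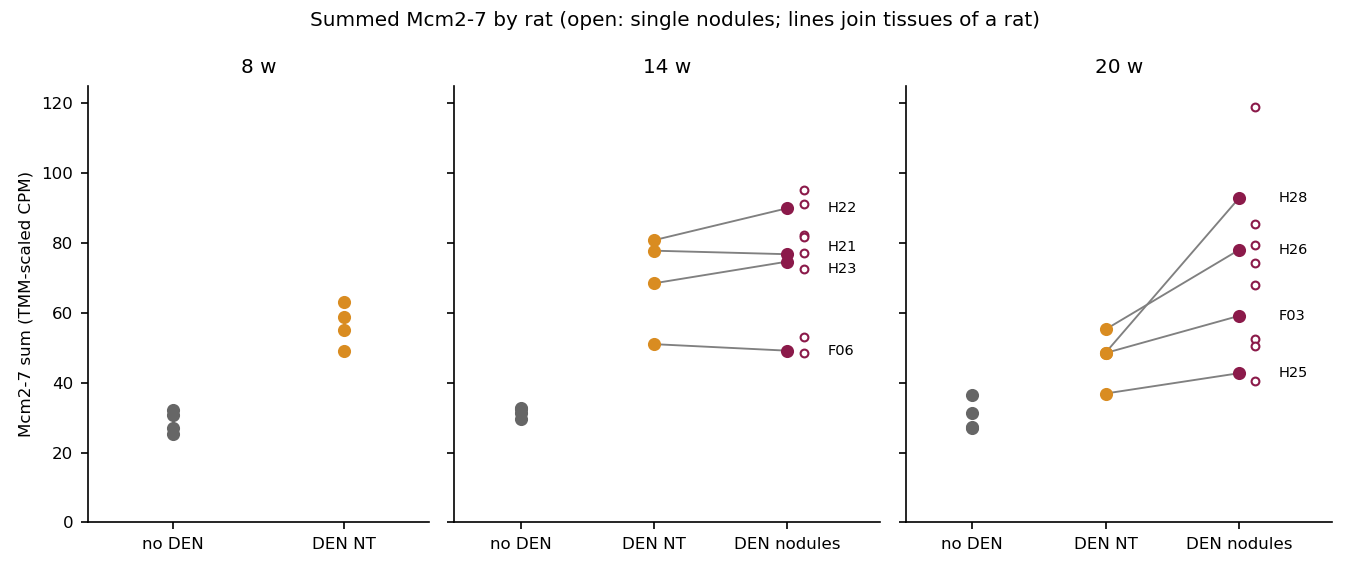
Sum of the TMM-scaled CPM of Mcm2 to Mcm7 (vertical axis, linear) for each rat at 8, 14 and 20 w, in no DEN liver, NT liver and nodules (horizontal axis), with filled points for rats, open points for single nodules and lines between the tissues of 1 rat. At 20 w every line rises, from 36.9 to 42.7 CPM in rat H25 and from 48.6 to 92.8 CPM in rat H28, while at 14 w the lines of H21 and F06 fall slightly.

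The 6 helicase subunits summed to 25.3 to 36.4 CPM over the 12 no DEN rats, 49.2 to 63.1 CPM with DEN at 8 w, 51.1 to 80.8 CPM in NT liver at 14 w and 36.9 to 55.3 CPM at 20 w. Only at 20 w did the treated range come close to the untreated one, through rat H25. Rats differed in the same direction across members: F06 was the lowest of its group for 9 of 10 members in NT liver and for 9 of 10 in nodules at 14 w, H25 for 8 and 10 of 10 at 20 w, and H28 was the highest for 9 of 10 in nodules at 20 w. The F06 nodules also stood apart in the share of pairs that were assigned to no gene, which here means pairs not wholly inside exons on the counted strand, with 34.5% and 28.2% against 22.95% to 25.5% in the other 6 nodules at 14 w, while NT liver of F06 had 24.4%, and the part of this in the low nodule levels was not tested. The helicase sums of the 2 nodules of a rat were close in H22, with 95.3 and 91.1 CPM, and furthest apart in H28, with 118.9 and 79.6 CPM. Single subunits differed more: of 48 pairs of nodule levels, 8 differed over 1.5-fold, with a median of 1.17-fold. F06, with close sums of 48.5 and 53.0 CPM, had 1.36 and 2.89 CPM of Mcm5, and F03 had 5.50 and 10.15 CPM of Mcm6. In F03 the low nodule was also the library with the most pairs placed at several sites, 16.3% against 10.3% in the other nodule and at most 13.2% in any other library, and the part of this was not tested.

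Other replication genes were taken from written lists. Of the other licensing genes (Orc2, Orc3, Orc4, Orc5, Orc6, Mcmbp and Kat7), 1 of 7 (14.3%) was called higher in each of the 5 comparisons with no DEN liver, where 14.3% to 23.9% of all genes were, so the count is no more than the background. It was Orc6 each time, the smallest origin complex subunit, with log2 fold changes of 0.78 to 1.46. The lowest was Mcmbp, which binds free MCM complexes, with -0.25 at 8 w. Of 6 genes that turn licensing factors over, 2 were called higher in NT liver at 8 and at 14 w and in nodules at 14 and at 20 w, and 0 in NT liver at 20 w, beside 14.3% to 23.9% of all genes. They were the F-box genes Skp2, which marks Cdt1 for degradation, and Fbxo5, an inhibitor of the anaphase promoting complex, with 1.02 and 0.87 at 8 w and 1.25 and 1.12 at 14 w in NT liver, and 1.53 and 1.21 at 14 w and 1.16 and 0.99 at 20 w in nodules. Cul4a, a scaffold of the ligase that degrades Cdt1, was called lower at 8 w with -0.50 and in nodules with -1.08 at 14 w and -0.94 at 20 w. Of all genes, 5.21% were called lower at 8 w and 15.2% in nodules at either time.

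Of the genes that fire licensed origins, 5, 7 and 8 were over the filter in all no DEN rats at 8, 14 and 20 w. Of these 2, 5 and 4 were called higher in NT liver, beside 14%, 18.5% and 11.9% of genes over the filter likewise, with medians of 0.59, 1.06 and 0.73, and in nodules 8 of 9 and 6 of 8 were, beside 19.2% and 19.1%. Gins4 and Gins1, subunits of the GINS complex, had the highest changes among them at 8 w (1.15) and 14 w (1.64). Mcm10 had the lowest at both times (0.11 and 0.35), where it was not called, while at 20 w it was called higher (0.58). Recql4, a helicase needed to start replication, had 2.39 at 8 w, and Cdc7, the kinase that phosphorylates MCM2-7, 2.39 at 14 w, but only 2 and 1 of 4 no DEN rats were over the filter. Of the fork genes, which copy the DNA, 21 were over the filter without DEN, and 10 were called higher in NT liver at 8 w, 12 at 14 w and 5 at 20 w, beside the same shares. At 8 w they ran from Pold2, a subunit of DNA polymerase delta, with 1.06, down to Rfc1, the large subunit of the clamp loader, with -0.40. Clspn, a checkpoint mediator at the fork, had 3.23 there, with 0 of 4 no DEN rats over the filter. The related helicase gene Mcm8, which acts in recombination, was called higher in all 5 comparisons with no DEN liver, by 1.10 to 1.79, with 3 or 4 of 4 no DEN rats over the filter.

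**Figure D5:**
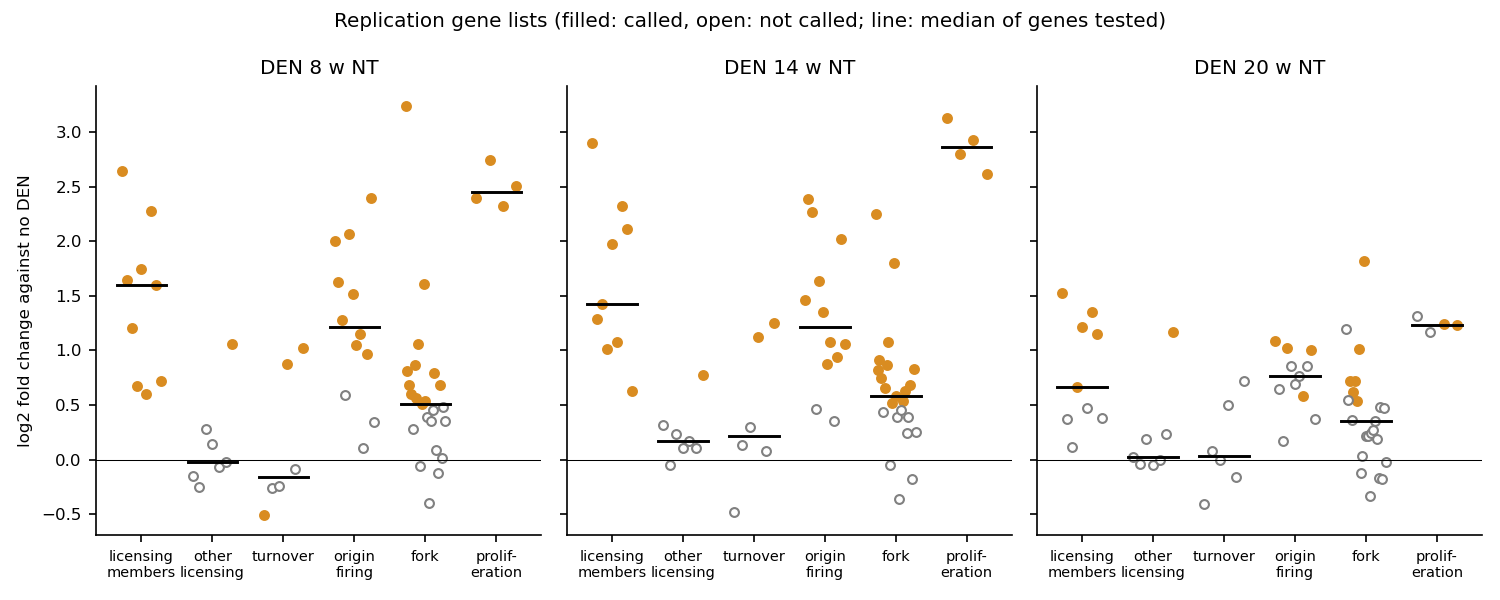
Log2 fold change of NT liver against no DEN liver (vertical axis) for the genes of 6 replication lists (horizontal axis) at 8, 14 and 20 w, with filled points for called genes, open points for genes not called and a line for the median of the genes tested. Of the 8 members over the filter without DEN, 8, 8 and 4 are filled at 8, 14 and 20 w, and Cdc6, tested through its level with DEN, adds 1 filled point each time.

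The 4 proliferation genes (Mki67, Top2a, Cdk1 and Ccnb1) are expressed from S phase to mitosis. In NT liver all 4 were called higher at 8 and 14 w, with medians of 2.45 and 2.86, and 2 of 4 at 20 w, again beside 16.5%, 22.8% and 14.3% of all genes. At 20 w their log2 fold changes were 1.17 to 1.32, beside 1.22 for Mcm3 and 1.35 for Mcm5. The lists were not tested against each other. The ratio of the summed MCM2-7 CPM to that of Mki67 in a rat was 2.93 to 7.86 without DEN and 1.79 to 2.24 with DEN at 8 w, and 5.01 to 7.66 and 1.51 to 2.20 in NT liver at 14 w. At both times the treated rats were below all untreated rats of their week. At 20 w the ratio was 4.50 to 6.15 without DEN and 2.37 to 5.38 in NT liver, and the groups overlapped.

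Markers of several other cell types moved with the groups too. The 7 leukocyte markers used (Ptprc, Cd3d, Cd3e, Cd3g, Lck, Cd79b and Ms4a1) summed to 13.4 to 21.1 CPM without DEN and 34.4 to 39.9 CPM with it at 8 w, and to 11.4 to 15.3 and 20.3 to 37.6 CPM at 14 w in NT liver. The 6 stellate cell and fibroblast markers summed to 149 to 188 and 304 to 412 CPM at 8 w and to 153 to 205 and 331 to 422 CPM at 14 w, with Col1a2 listed at 0 in every library. The 4 cholangiocyte markers found (Krt19, Epcam, Sox9 and Spp1) summed to 18.6 to 22.5 and 28.3 to 36.0 CPM at 8 w, and to 15.9 to 23.3 CPM without DEN, 36.6 to 85.7 CPM in NT liver and 61.9 to 114 CPM in nodules at 14 w. All 4 endothelial markers (Pecam1, Cdh5, Stab2 and Plvap) were called higher in all 5 comparisons with no DEN liver, beside 14.3% to 23.9% of all genes, and 1 of 4 macrophage markers was. The hepatocyte markers summed to 282400 to 297700 CPM without DEN and 219200 to 278600 CPM with it at 8 w, and to 265900 to 301100, 178200 to 218100 and 159000 to 189100 CPM in no DEN liver, NT liver and nodules at 14 w.

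At 20 w the leukocyte markers summed to 9.57 to 17.9 CPM without DEN, 17.6 to 29.0 CPM in NT liver and 20.7 to 24.7 CPM in nodules, and the cholangiocyte markers to 17.5 to 22, 33.2 to 53.3 and 68.2 to 180 CPM. The stellate cell and fibroblast markers summed to 125.2 to 179 CPM without DEN, 198 to 221 CPM in NT liver and 226 to 290 CPM in nodules, so that the nodules lay above all NT livers, and 2 of 5 tested were called higher in nodules than in NT liver with the replicate block, as were 3 of 4 cholangiocyte markers, beside 9.21% of all genes. The hepatocyte markers summed to 270800 to 313400, 215100 to 280000 and 152300 to 216400 CPM, and 2 of 5 were called lower in nodules with the block, as was 1 of 4 macrophage markers, beside 5.46% of all genes. Within the 14 w group the rat with the lowest helicase sum, F06, had the highest leukocyte sum in NT liver, 37.6 CPM against 20.3 to 22.6 CPM in the other 3, and the lowest cholangiocyte sum, 36.6 CPM. In the nodules at 20 w, H25, the lowest rat for all 10 members, also had the lowest cholangiocyte sum, and H28, the highest for 9, the highest. The part of these cell types in the differences of the licensing genes was not tested.

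The genes whose pattern over the 8 group means was most like the mean of Mcm2 to Mcm7 were sought among 10058 genes with a mean of at least 1 CPM. The measure was the root-mean-square distance of centred log2 CPM. The nearest was Gins2, a subunit of the GINS complex that joins MCM2-7 in the active helicase, at 0.06. It was followed by St3gal2 (0.08), a sialyltransferase, Adam19 (0.10), a membrane protease, Ltbp1 (0.10), a TGF-beta binding protein of the matrix, and Serpinh1 (0.10), a collagen chaperone. The 6 helicase genes lay 0.21 (Mcm6) to 0.37 (Mcm5) from this mean, of which they are part, and the other members 0.18 (Cdt1) to 0.53 (Cdc6).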

How the data were processed

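Liver messenger RNA of 24 rats was sequenced as 40 strand-specific libraries, 1 file of gene counts each. The values are raw counts per gene as deposited by the authors. Per the labels and the study's methods, read pairs were aligned to rn6 with STAR 2.7.1a and counted on exons with HTSeq on the reverse strand in its strict intersection mode, without normalization. Pairs assigned to no gene, that is not wholly inside exons on the counted strand (21.5% to 34.5% of a library), and pairs that could not be placed were kept out of library sizes. Groups were taken from the labels. Both nodules of a rat were summed into 1 value. Each comparison used its groups only, with filterByExpr, TMM scaling and the robust quasi-likelihood F test of edgeR 4.0.16 (R 4.3.3, 2-sided) and Benjamini-Hochberg adjustment over all genes tested. Calls needed an absolute log2 fold change of 0.5 or more and an adjusted p no higher than 0.05, and for interactions that adjusted p alone. A rat was over the filter on low counts at 10 counts in a library of median size (0.24 to 0.332 CPM against no DEN liver). Counts over genes that all untreated rats carry over it were added after the data were seen. The scripts were tested on simulated data.

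The 10 members are named throughout, and the genes of other lists by the highest and lowest changes and by what was called. The members and lists were chosen with earlier results of these data known. Listed genes Dtl, Ticrr, Topbp1, Mcm9, Cd79a and Krt7 were not analysed here. One leukocyte marker of the list is not reported here and was left out of its sums. The alternatives were DESeq2 1.42.0, RLE or library size scaling, no filter, all 8 groups in 1 fit, stricter thresholds (log2 fold change of 1, adjusted p of 0.01), H rats only, nodule 1 or 2 alone, each rat left out, and the rat as a replicate block for nodules against NT liver. The numbers pair the tissues because they name the same animal, and deviations of the 2 tissues of a rat from their group means correlated at r = 0.368 to 0.545 in all 8 rats. The labels do not say that rats of a group came from separate litters or cages. Libraries carry no molecular identifiers, so the precision was taken from the spread between rats. No 2 libraries of a group agreed within sampling noise.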

Additional observations from a re-analysis of the deposited data

Results flagged for a closer look

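In 1 of the 80 sets of 4 rats examined (10 genes in 8 groups), a single rat stood apart by Dixon's test. Cdt1 in no DEN liver at 8 w was 0.474 CPM in rat H08, against 0.800 CPM in the nearest and 0.850 CPM in the highest rat, a gap of 0.866 of the whole range, above the 95% critical value for 4 values. Chance marks about 1 in 20 such sets. Without H08 the call of Cdt1 at 8 w was kept.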

How the results depend on the processing

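The 2268 alternative values of 135 results included 1866 log2 fold changes, of which 1767 kept their direction and their side of the threshold. The rest of the 2268 were counts of members or of genes called, which have neither. Against no DEN liver, 727 fold changes were recomputed, of which 687 were kept, 30 lost their call, 8 gained one and 2 changed sign, both of Gmnn in NT liver at 20 w with a rat left out (-0.0809 to 0.259). Leaving out 1 rat gave 3 to 6 members called in NT liver at 20 w (3 without H26, H14 or H16). The stricter threshold left 6, 8 and 1 members in NT liver at 8, 14 and 20 w, from 9, 9 and 5 with Cdc6 counted. Of all genes, 7.29%, 13.1% and 4.89% were called higher with it. Mcm2, Mcm4 and Mcm7 lost their calls at 8 w, and Mcm7 at 14 w. In nodules at 14 and 20 w it left 7 and 5 members, from 10 and 8, beside 14.2% and 13.4% of all genes. In nodules against NT liver at 20 w, where the same rats gave both tissues, 5 members and 1693 genes were called with the replicate block, 1 member (Cdt1) and 1096 genes with all 8 groups in the fit, 902 genes with DESeq2, 218 with nodule 1 alone and 0 to 445 with a rat left out (445 without H25). The block changed no call at 14 w. In the interaction of 20 against 14 w in NT liver, 1 member passed with DESeq2 and 1 with H rats only (Gmnn both times), and 0 to 1 with a rat left out (Gmnn without F06, H28 or H16, Mcm4 without H26), and in that of 14 against 8 w 0 to 1 (Mcm6 without F06). The cause of these moves was not tested.

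Counts over all genes moved as follows. The stricter threshold left 855, 1676 and 565 genes in NT liver at 8, 14 and 20 w, from 2344, 3592 and 1957, and 2117 and 1946 in nodules, from 4425 and 4347. DESeq2 called 35 genes in nodules against NT liver at 14 w. In untreated liver at 14 against 8 w, 20 were called with DESeq2, 2 with no filter, 1 with all 8 groups and 0 to 117 with a rat left out, and at 20 against 8 w 168 with DESeq2, 1 with the stricter threshold and 11 to 102 with a rat left out. The interactions gave 1529 (DESeq2), 1852 (library size scaling), 151 (all 8 groups) and 533 to 1870 genes (a rat left out) for 14 against 8 w, from 1005. They gave 382 (DESeq2), 144 (library size scaling), 41 (all 8 groups), 182 (H rats only) and 31 to 408 for 20 against 14 w in NT liver, from 83, and 29 (DESeq2), 16 (all 8 groups) and 6 to 15 for nodules, from 10.

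Scaling by library size alone moved the median log2 fold change of all genes against no DEN liver by 0.20 to 0.57, and the calls that were higher made up 93.0%, 94.3% and 93.9% in NT liver at 8, 14 and 20 w, from 76.0%, 69.8% and 78.8% with TMM, and 93.3% and 91.9% in nodules, from 61.2% and 60.8%. All members that were called with TMM rose with it too, and 7 members were called at 20 w in NT liver.

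Signs turned in log2 differences that were not called. In nodules against NT liver at 14 w, Mcm2 was 0.0799 (library size scaling) and 0.0214 (H rats only), Mcm4 0.0538, 0.00575 and 0.00799 (the same and nodule 1 alone), Cdc6 0.0114 (library size scaling), Orc1 0.130 (nodule 1 alone), Mcm5 -0.0785 (replicate block) and -0.0633 (nodule 2 alone), and Mcm6 -0.0174 and -0.0483. With a rat left out there, Mcm2 ranged from -0.0674 to 0.0214, Mcm4 from -0.108 to 0.00575, Mcm5 from -0.0660 to 0.113, Mcm6 from -0.0350 to 0.0974 and Cdc6 from -0.252 to 0.0305. In untreated liver such ranges were -0.239 to 0.0410 (Mcm3) and -0.0625 to 0.0839 (Mcm6) at 14 against 8 w, and -0.135 to 0.192 (Mcm3), -0.0045 to 0.129 (Mcm4) and -0.0534 to 0.397 (Mcm6) at 20 against 8 w. In the interaction of 14 against 8 w, Mcm5 was -0.0376 with H rats only and -0.123 to 0.240 with a rat left out, Mcm7 0.139 with library size scaling, Cdc6 -0.516 to 0.588 and Gmnn -0.0120 to 0.375. In that of the nodules, Mcm2 ranged from -0.0736 to 0.269, Mcm4 from -0.261 to 0.0287, Mcm5 from -0.470 to 0.0123, Mcm7 from -0.0495 to 0.219 and Orc1 from -0.824 to 1.17.

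Depth limited Orc1 and Cdc6, which had 0 to 10 counts per rat without DEN. Against no DEN liver with all rats, Orc1 passed the filter on low genes in nodules at 14 w alone. With all 8 groups in the fit it was called in nodules at 20 w too (log2 fold change of 1.76). Its level in no DEN liver rests on few reads.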
